A study of Homo sapiens with 7 samples.

Results

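Respiratory complex III, the ubiquinol-cytochrome c oxidoreductase, is described here through open chromatin at the genes of 9 of its nuclear-encoded subunits and of 1 assembly factor. The subunit genes were UQCRC1, UQCRC2, UQCRFS1, CYC1, UQCRB, UQCRQ, UQCRH, UQCR10 and UQCR11, and the assembly factor was BCS1L. They were chosen by name and function, and all 10 matched the 19974 protein-coding genes of the RefSeq table. Accessible regions were taken from the 7 deposited peak lists wherever they lay within 10 kb of a member's gene body. Those windows held 37 separate regions once overlapping peaks of different libraries were merged.

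Complex III takes electrons from ubiquinol, hands them to cytochrome c and moves protons across the inner mitochondrial membrane. Antimycin A binds the complex at the quinone-reducing site of cytochrome b and stops this electron flow. Cytochrome b is encoded by mitochondrial DNA, while all the other subunits are made from nuclear genes and imported, so a neuron has to supply them from many chromosomes. Oligomycin, given together with antimycin A, blocks the proton channel of the ATP synthase, which uses the gradient that complex III helps to build.

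The libraries were ATAC-seq libraries, where Tn5 transposase inserts sequencing adapters into accessible DNA, from LUHMES cells, an established and conditionally immortalised line from human embryonic mesencephalon. In all 7 the cells carried the wild-type genotype of this single line and had been differentiated for 6 days in medium with tetracycline, dibutyryl cAMP and GDNF. Treated libraries 6, 7, 8 and 9 came from cells given antimycin A at 25 µM and oligomycin at 10 µM for 8 hours, and vehicle libraries 6, 7 and 8 from cells given DMSO. The number of a library is that of its differentiation, which the study calls an independent batch. Both drugs were always given together, so their effects cannot be told apart.

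The lists differed in length, with 53063 to 248900 regions per treated library and 32828 to 159902 per vehicle library. Relative depth, read from the background that the fold enrichments imply, ran from 0.816 to 5.99 fragments in treated libraries and from 0.492 to 1.43 fragments in vehicle libraries. For this reason each library was reduced to its 32828 regions of highest fold enrichment, called the equal-size list from here on. A gene-end region is the region of highest fold enrichment within 1000 bp of either end of a gene. Its rank is given in percent of the equal-size list, so that a value near 0 is among the strongest regions of the library and "outside" means that no gene-end region was in the list. Of 9 markers of dopaminergic neurons, the labelled cell type, each library had a gene-end region at 4, of which 3 (NR4A2, PITX3 and EN1) had one in all 7 lists. TH, DDC, SLC18A2 and LMX1B had none in any equal-size list. PITX3 was called nearer the top in treated libraries (log2 rank difference -0.73, exact permutation p = 0.0286, adjusted 0.520). So were 4.51% of the 14055 genes with a region in at least 1 equal-size list. Of 6 markers of all neurons, 5 had a gene-end region in every library. Mesenchymal and endothelial markers had one at 3 to 4 of 7 genes in treated libraries and at 1 to 2 in vehicle libraries, and glial markers at 2 to 3 of 5 genes in treated libraries and at 1 to 2 in vehicle libraries. OLIG2 and TWIST1 had one in all 7 lists, and MBP and PRRX1 in 4 treated and 2 vehicle lists. AQP4 and COL1A1 had one in 2 and 3 treated lists and in no vehicle list. PDGFRB had one in all 4 treated and none of the vehicle libraries, as did 0.818% of the 14055 genes. COL1A2, PECAM1, CDH5, GFAP and S100B were outside everywhere. Progenitor markers had one at 3 to 4 of 4 genes in treated libraries and at 1 to 4 in vehicle libraries. Over all protein-coding genes, a mean of 62.4% had one in treated libraries and 56.1% in vehicle libraries. The part of these cell type markers in the members' values was not tested.

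RefSeq promoter sequences, from 250 bases before the annotated start to 50 bases after it on GRCh38.p14, were matched for 8 of the 10 members. The promoters of 4 members are shown, chosen for the traits named next. UQCR11 had the largest difference between treatments toward the top of the list, UQCRQ the region nearest the top, UQCRH the widest region, and UQCRC1 carried the short motifs of both NRF1 and YY1, factors known to act at promoters of nuclear respiratory genes. Capitals mark matches to the NRF1 core TGCGCA, to the ETS motif CCGGAAG and to the YY1 motif ATGGCGG, each searched on both strands. The sequences run 5′ to 3′ along the gene and cover chr19:1605413-1605712 on the minus strand for UQCR11, chr5:132866392-132866691 on the plus strand for UQCRQ, chr1:46303448-46303747 on the plus strand for UQCRH, and chr3:48609597-48609896 on the minus strand for UQCRC1.
UQCR11: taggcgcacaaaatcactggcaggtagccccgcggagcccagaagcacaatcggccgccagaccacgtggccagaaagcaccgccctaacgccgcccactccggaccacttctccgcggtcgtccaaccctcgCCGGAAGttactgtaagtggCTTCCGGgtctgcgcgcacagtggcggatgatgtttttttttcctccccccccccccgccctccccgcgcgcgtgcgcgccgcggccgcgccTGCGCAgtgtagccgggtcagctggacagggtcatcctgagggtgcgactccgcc
UQCRQ: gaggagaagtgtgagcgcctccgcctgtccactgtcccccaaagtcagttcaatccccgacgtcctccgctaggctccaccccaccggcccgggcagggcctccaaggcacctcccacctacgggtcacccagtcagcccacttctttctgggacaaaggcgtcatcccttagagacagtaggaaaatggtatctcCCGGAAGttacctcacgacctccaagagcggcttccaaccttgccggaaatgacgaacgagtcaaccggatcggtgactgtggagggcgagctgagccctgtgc
UQCRH: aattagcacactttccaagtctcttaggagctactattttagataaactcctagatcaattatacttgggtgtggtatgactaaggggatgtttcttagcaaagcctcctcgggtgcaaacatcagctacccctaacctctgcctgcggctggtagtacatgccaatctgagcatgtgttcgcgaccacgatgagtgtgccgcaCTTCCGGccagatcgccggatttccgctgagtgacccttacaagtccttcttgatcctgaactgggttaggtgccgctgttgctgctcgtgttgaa
UQCRC1: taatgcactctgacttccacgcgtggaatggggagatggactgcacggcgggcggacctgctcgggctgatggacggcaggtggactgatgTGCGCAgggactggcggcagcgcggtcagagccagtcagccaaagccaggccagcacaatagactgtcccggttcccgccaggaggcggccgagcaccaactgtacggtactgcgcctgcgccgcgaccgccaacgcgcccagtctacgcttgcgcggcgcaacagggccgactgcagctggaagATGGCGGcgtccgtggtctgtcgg

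The UQCR11 promoter held 2 ETS matches, at bases -117 and -97 from the start, and an NRF1 core at base -5. It also held the SP1 motif GGGCGG at 3 places and the E-box CACGTG once, which are not in capitals. The ETS motif was present at 3 of the 8 promoters searched (UQCRQ, UQCRH and UQCR11), against 14.2% of 15813 RefSeq promoters of the same length. The NRF1 core was present at 2 (UQCRC1 and UQCR11), against 10.8% of all promoters, and the YY1 motif at 2 (UQCRC1 and UQCR10), against 7.63%. GGGCGG was present at 4 members, against 58.5% of all promoters, and the NF-Y motif CCAAT at 4, against 36.3%. The E-box was present at 1 member, against 8.87% of all promoters. Neither the cAMP response element TGACGTC nor the C/EBP-ATF motif TTGCATC was found in a member's promoter, where 4.58% and 1.95% of all promoters held them. No match overlapped another in these 8 windows. The GC content of the 8 promoters ran from 48.3% at UQCR10 to 68.3% at UQCRFS1, with a median of 62.2%, against a median of 62.7% over all promoters.

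Chromatin at the ends of the complex III genes was open in nearly every library of either treatment. In the equal-size lists, 10 of 10 members had a gene-end region in each treated library, and 7, 9 and 10 had one in vehicle libraries 6, 7 and 8. The mean was 10 ± 0 members in treated libraries and 8.67 ± 1.53 in vehicle libraries (SD, n = 4 and 3), a difference of 1.33 members that was smaller than the SD of the vehicle libraries. Over all protein-coding genes, 12464 ± 383 had a gene-end region in treated libraries and 11204 ± 513 in vehicle libraries. Regions were missing at CYC1, UQCR11 and BCS1L in vehicle library 6 and at UQCR11 in vehicle library 7. Those 3 members had a region in a larger share of treated than of vehicle libraries, as did 27.5% of the 14055 genes with a region in at least 1 equal-size list, and no member had a larger share in vehicle libraries, where 6.48% of genes did. No member was present in all treated and no vehicle lists, or the reverse, as 0.818% and 0.0213% of genes were. The other 7 members had a region in all 7 lists, as did 66.1% of genes. In the lists as deposited the counts were 10 in each treated library and 8, 9 and 10 in vehicle libraries 6, 7 and 8. UQCR11 in vehicle library 6 had a deposited region that fell beyond the equal-size list.

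By the median rank over 7 libraries, UQCRQ stood nearest the top at 6.67% of the list, followed by UQCRB at 9.33%, UQCRFS1 at 10.7%, UQCRC2 at 11.3%, UQCRH at 18.4%, UQCRC1 at 28.0%, BCS1L at 38.7%, UQCR10 at 40.02%, UQCR11 at 47.1% and CYC1 at 60.3%. The median over all genes tested was 30.8%. Neighbours in this order overlapped in their ranges over the 7 libraries in every case. UQCRQ, UQCRB, UQCRFS1 and UQCRC2 ranked at 22.7% or nearer the top in each library, and UQCRC1, BCS1L, UQCR10, UQCR11 and CYC1 at 24.0% or farther from it, so these 4 and these 5 did not overlap, while UQCRH reached into both. The rank compares summit enrichments and not summed reads, so it does not depend on the length of a gene.

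**Figure D1:**
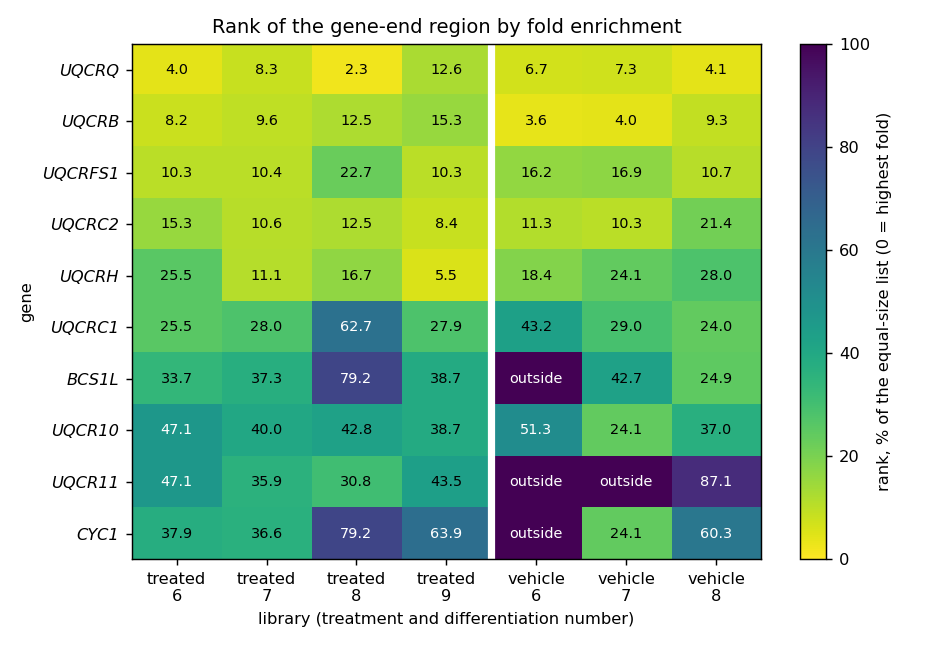
Rank of each member's gene-end region in each library, in percent of the equal-size list, with treated libraries left of vehicle libraries and members ordered by their median. Light cells are strong regions; UQCRQ stays between 2.33% and 12.6%, and UQCR11 is between 30.8% and 47.1% in treated libraries but at 87.1% or outside in vehicle libraries.

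Among the small subunits without redox centres, UQCR11, the smallest supernumerary subunit, showed the clearest separation of treatments. Its region on chromosome 19 ranked at 47.1%, 35.9%, 30.8% and 43.5% of the list in treated libraries 6, 7, 8 and 9, and at 87.1% in vehicle library 8, while vehicle libraries 6 and 7 had it outside. The groups did not overlap, and every treated library had the region nearer the top than any vehicle library. The mean log2 rank in treated minus vehicle libraries was -1.30 ± 0.15 (SE, n = 4 and 3), with an exact permutation p of 0.0286, two-sided, the smallest that 35 assignments of the labels can give. After Benjamini-Hochberg adjustment over 14055 genes the exact p was 0.520, and no gene passed 0.05. UQCR11 was the 1 member of 10 called at an unadjusted exact p under 0.05, against 4.51% of all genes called nearer the top in treated libraries, 0.975% called nearer the top in vehicle libraries and 5.49% called in either direction. With 10 members, 1 call does not set them apart from that background. Of all genes, 1.84% had a more negative difference. Groups that did not overlap were found at 1 member, against 9.44% of genes nearer the top in treated libraries and 1.57% nearer the top in vehicle libraries.

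The summit of the UQCR11 region held 46, 85, 13 and 16 fragments in treated libraries 6, 7, 8 and 9, where a region needed 27, 41, 7 and 10 fragments to enter the equal-size list. In vehicle library 6 it held 4 fragments, under the 6 needed, and in vehicle library 8 it held 23, just over the 21 needed. Vehicle library 7, where 5 fragments sufficed, listed no region, so the presence of weaker openness there was not detectable at this depth. By presence in the equal-size list, 4 of 4 treated and 1 of 3 vehicle libraries had the region, with a Fisher's exact p of 0.143 and an adjusted p of 1. By limma on log2 rank the p was 0.000411, the 22nd smallest of 14055, with an adjusted p of 0.262 and no gene passing after adjustment. In vehicle libraries 6 and 7 the rank is the value given to absent regions, 32829, so the spread of the vehicle group, the SE and the limma p rest partly on that value, and the difference is limited by it. With differentiations 6, 7 and 8 as pairs the difference was -1.36, with an exact sign-flip p of 0.25, the smallest that 3 pairs can give.

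List length and base composition moved with the treatments, so UQCR11 was also read within each. Among libraries with short lists (treated 8 and 9, vehicle 6 and 7) its difference was -1.45, and among those with long lists (treated 6 and 7, vehicle 8) it was -1.08. At promoters with at least 65% GC, such as that of UQCR11 with 68%, a gene-end region was present at 78.4%, 82.8%, 78.2% and 80.4% of genes in treated libraries 6, 7, 8 and 9, and at 67.7%, 71.3% and 74.4% in vehicle libraries 6, 7 and 8. At promoters with under 50% GC the shares were 25.1% to 28.4% in treated libraries and 23.5% to 26.8% in vehicle libraries. After the median rank of genes of like promoter GC content had been subtracted within each library, the UQCR11 difference was -1.002 (exact permutation p = 0.0286, two-sided, n = 4 and 3). That subtraction also removes any shift shared by genes of all GC contents, so it cannot separate base composition from such a shift. With lists of the strongest 16414 regions the UQCR11 difference was -0.37 (exact permutation p = 0.0857). With regions of a −log10 q of at least 5 it was -0.28 (exact permutation p = 0.257). In both kinds of list every vehicle library took the value given to absent regions, which limits the difference. In the stricter lists of 15445 regions treated library 6, at rank 15460.5, took that value as well.

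**Figure D2:**
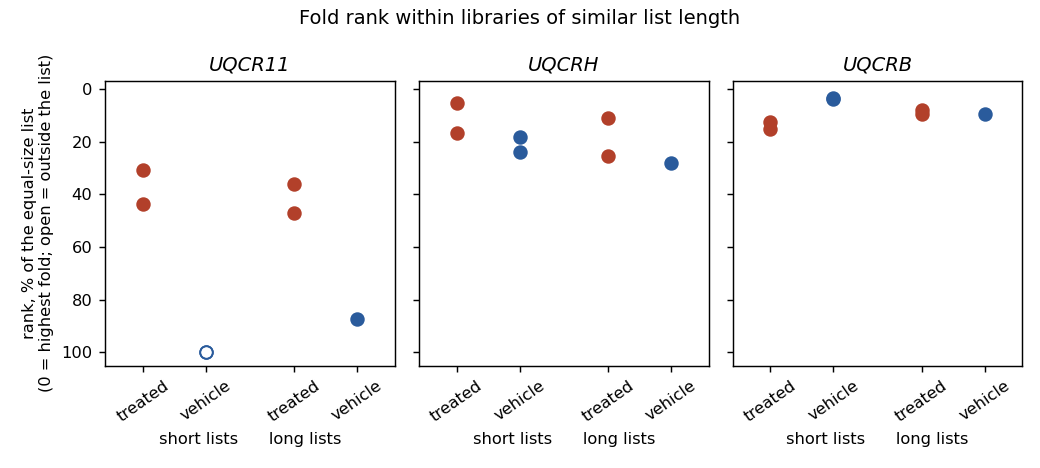
Rank of the gene-end regions of UQCR11, UQCRH and UQCRB in percent of the equal-size list, with 0 at the top, treated libraries in red left of vehicle libraries in blue, separately for short and long deposited lists. Open circles are libraries without a region in the list; UQCR11 is separated within both kinds of list, with differences of -1.45 and -1.08 in log2 rank, while the differences of UQCRB are 1.87 in short and -0.07 in long lists.

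UQCRB, known as the ubiquinone-binding protein of the complex, ranked nearer the top in vehicle libraries on average. Its region ranked at 8.18%, 9.62%, 12.5% and 15.3% in treated libraries 6, 7, 8 and 9, and at 3.61%, 3.95% and 9.33% in vehicle libraries 6, 7 and 8. The groups overlapped through treated library 6 and vehicle library 8. The difference in log2 rank was 1.12 ± 0.48 (SE), with an exact permutation p of 0.0571, two-sided, and an adjusted p of 0.520. Only 1.06% of all genes had a more positive difference. By limma the p was 0.0272, with an adjusted p of 0.336. The difference was 1.87 in short lists (treated 8 and 9, vehicle 6 and 7) and -0.07 in long lists (treated 6 and 7, vehicle 8), where the vehicle value is that of a single library.

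UQCRQ, a small subunit bound to cytochrome b, was near the top of every list. Its region ranked at 4.01%, 8.28%, 2.33% and 12.6% in treated libraries 6, 7, 8 and 9, and at 6.67%, 7.33% and 4.07% in vehicle libraries 6, 7 and 8. The vehicle values lay inside the treated range, and the difference in log2 rank was -0.06 ± 0.60 (SE, exact permutation p = 0.943). UQCRH, the acidic hinge protein that helps cytochrome c dock on cytochrome c1, ranked at 25.5%, 11.1%, 16.7% and 5.51% in treated libraries 6, 7, 8 and 9, and at 18.4%, 24.1% and 28.0% in vehicle libraries 6, 7 and 8. Most treated libraries had it nearer the top, with treated library 6 inside the vehicle range, and the difference of -0.86 ± 0.50 (SE) did not pass (exact permutation p = 0.200). UQCR10, a small transmembrane subunit, ranked at 47.1%, 40.02%, 42.8% and 38.7% in treated libraries 6, 7, 8 and 9, and at 51.3%, 24.1% and 37.0% in vehicle libraries 6, 7 and 8. Treated libraries were close together and fell inside the vehicle range, with a difference of 0.23 ± 0.32 (SE, exact permutation p = 0.514).

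The redox subunits did not separate the treatments. UQCRFS1 encodes the Rieske iron-sulfur protein, which carries electrons from ubiquinol to cytochrome c1. Its region ranked at 10.3%, 10.4%, 22.7% and 10.3% in treated libraries 6, 7, 8 and 9, and at 16.2%, 16.9% and 10.7% in vehicle libraries 6, 7 and 8, with a difference of -0.19 ± 0.36 (SE, exact permutation p = 0.714). Treated libraries 6, 7 and 9 were nearly equal, and treated library 8 ranked farther from the top than every vehicle library. CYC1 encodes cytochrome c1, the haem protein that passes electrons to cytochrome c. It ranked at 37.9%, 36.6%, 79.2% and 63.9% in treated libraries 6, 7, 8 and 9, and at 24.1% and 60.3% in vehicle libraries 7 and 8, with vehicle library 6 outside. The vehicle libraries thus covered the whole treated range, and the difference was -0.03 ± 0.66 (SE, exact permutation p = 0.943).

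UQCRC1 and UQCRC2 encode the large core proteins on the matrix side, which are related to the mitochondrial processing peptidase. UQCRC1 ranked at 25.5%, 28.0%, 62.7% and 27.9% in treated libraries 6, 7, 8 and 9, and at 43.2%, 29.0% and 24.0% in vehicle libraries 6, 7 and 8. The groups overlapped, with a difference of 0.11 ± 0.39 (SE, exact permutation p = 0.800). UQCRC2 ranked at 15.3%, 10.6%, 12.5% and 8.39% in treated libraries 6, 7, 8 and 9, and at 11.3%, 10.3% and 21.4% in vehicle libraries 6, 7 and 8. Its treated values lay within or just beyond the vehicle range, and the difference was -0.25 ± 0.38 (SE, exact permutation p = 0.571). BCS1L encodes the AAA protein that moves the folded Rieske protein across the inner membrane into the complex. It ranked at 33.7%, 37.3%, 79.2% and 38.7% in treated libraries 6, 7, 8 and 9, and at 42.7% and 24.9% in vehicle libraries 7 and 8, with vehicle library 6 outside, a difference of -0.10 ± 0.65 (SE, exact permutation p = 0.857). Single libraries weighed heavily here, since a rank of 79.2% in treated library 8 stood for a summit of 8 fragments at both BCS1L and CYC1.

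Across the members, 7 of 10 had a negative difference, that is nearer the top in treated libraries, with a median of -0.08. Among all 14055 genes, 71.0% were negative and the median was -0.23, and of 771 genes called, 634 were nearer the top in treated libraries. The GC adjustment subtracts each library's own median rank among genes of like promoter GC content. It therefore also removes any shift shared by genes of all GC contents, and a median close to no difference follows from that step. After the adjustment the median of 11453 genes with a promoter entry had moved by 0.29, to 0.06, and 195 of 738 called genes were nearer the top in treated libraries. A negative difference was left at 2 of 8 matched members, UQCRH and UQCR11, and at 45.5% of the 11453 genes. The part of base composition in these differences, apart from such a shared shift, was not tested.

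**Figure D3:**
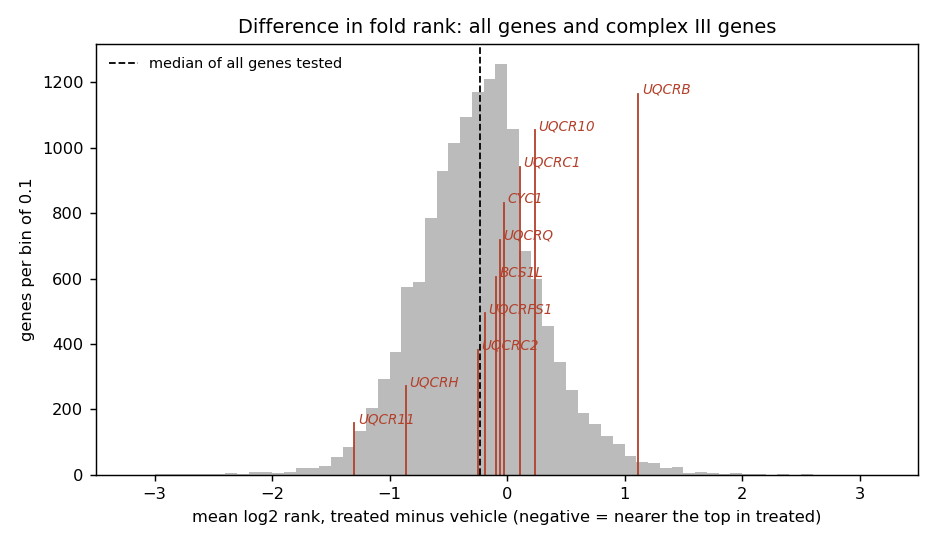
Histogram of the difference in mean log2 rank, treated minus vehicle, over all genes tested (grey, number of genes per bin of 0.1), with the members as labelled red lines whose heights carry no value. The dashed line is the median of all genes at -0.23; UQCR11 at -1.30 and UQCRB at 1.12 lie farthest out on either side, and 7 of the 10 members lie left of 0.

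Width, the length of the gene-end region as the peak caller gave it, overlapped between the treatments at all 7 members with a region in every list. UQCRH had the widest region, with 2786, 3566, 720 and 2468 bp in treated libraries 6, 7, 8 and 9, and 1536, 534 and 2490 bp in vehicle libraries 6, 7 and 8. The longest lists gave the widest UQCRH regions in both groups, and the groups overlapped. UQCRC1 had among the narrowest regions, with 845, 1191, 330 and 704 bp in treated libraries 6, 7, 8 and 9, and 426, 494 and 931 bp in vehicle libraries 6, 7 and 8. The median over the members was 1396.5, 1841, 729.5 and 1172 bp in treated libraries 6, 7, 8 and 9, and 914, 534 and 1417 bp in vehicle libraries 6, 7 and 8, close to the medians over all genes with a gene-end region (849 to 1922 bp in treated libraries, 614 to 1382 bp in vehicle libraries).

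The 7 members with a region in all 7 equal-size lists were tested for width, and 0 of them were called, against 1.43% of 9284 genes called wider and 0% called narrower in treated libraries by the exact permutation test. By limma, 713 of the 9284 genes had an unadjusted p under 0.05, 0 of them members, and none passed after adjustment. All 7 members were wider on average in treated libraries, as were 9056 of the 9284 genes, with a median log2 difference of 0.37 over the members and 0.49 over all genes. The largest was that of UQCRH at 0.69 ± 0.83 (SE, exact permutation p = 0.429), and the smallest that of UQCRQ at 0.15 ± 0.22 (SE, exact permutation p = 0.514). Ranked by width within each library in place of base pairs, 6 of the 7 turned in sign. CYC1, UQCR11 and BCS1L, which lacked a region in at least 1 list, had no test. The UQCR11 region measured 1175, 1638, 739 and 748 bp in treated libraries 6, 7, 8 and 9, and 992 bp in vehicle library 8, with 452 bp for the weaker deposited region of vehicle library 6.

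**Figure D4:**
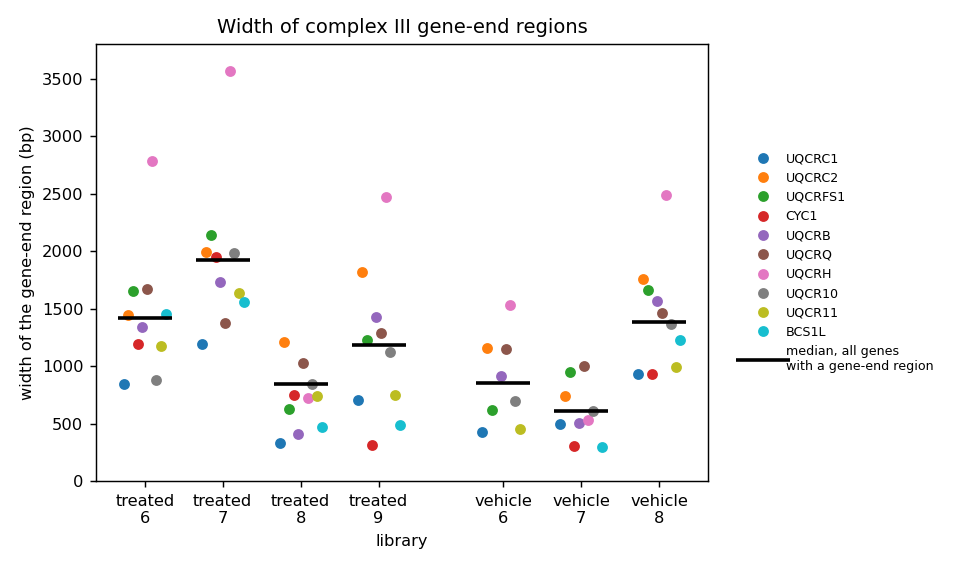
Width of each member's gene-end region in bp (coloured points) with the median over all genes with such a region (black bars), treated libraries left of vehicle libraries. UQCRH is widest in all libraries but treated 8 and vehicle 7, and the member points follow the bars, which are lowest in vehicle 7 at 614 bp.

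Wherever the strand was known, the regions covered the start of transcription, apart from those of UQCR11 in treated library 9 and vehicle library 6. The position of the summit varied more at some members than at others. At UQCRC1 the summit lay 14 to 103 bp upstream of the annotated start in all 7 libraries, and at UQCRC2 1 to 127 bp upstream. At UQCR11 the summits lay farther out, 208 to 594 bp upstream, and 4 of the 6 deposited regions reached over the start. Only the UQCR11 summit of treated library 7 lay inside the printed promoter. In treated library 9 the UQCR11 region stopped 137 bp before the start and in vehicle library 6 it stopped 147 bp before, so these regions did not cover the ETS and NRF1 matches printed above. For CYC1 and UQCRB, whose strand was not in the tables used, distance was counted from the gene end nearer the summit. The CYC1 regions of treated library 9 and vehicle library 7 stopped 30 bp before that end.

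**Figure D5:**
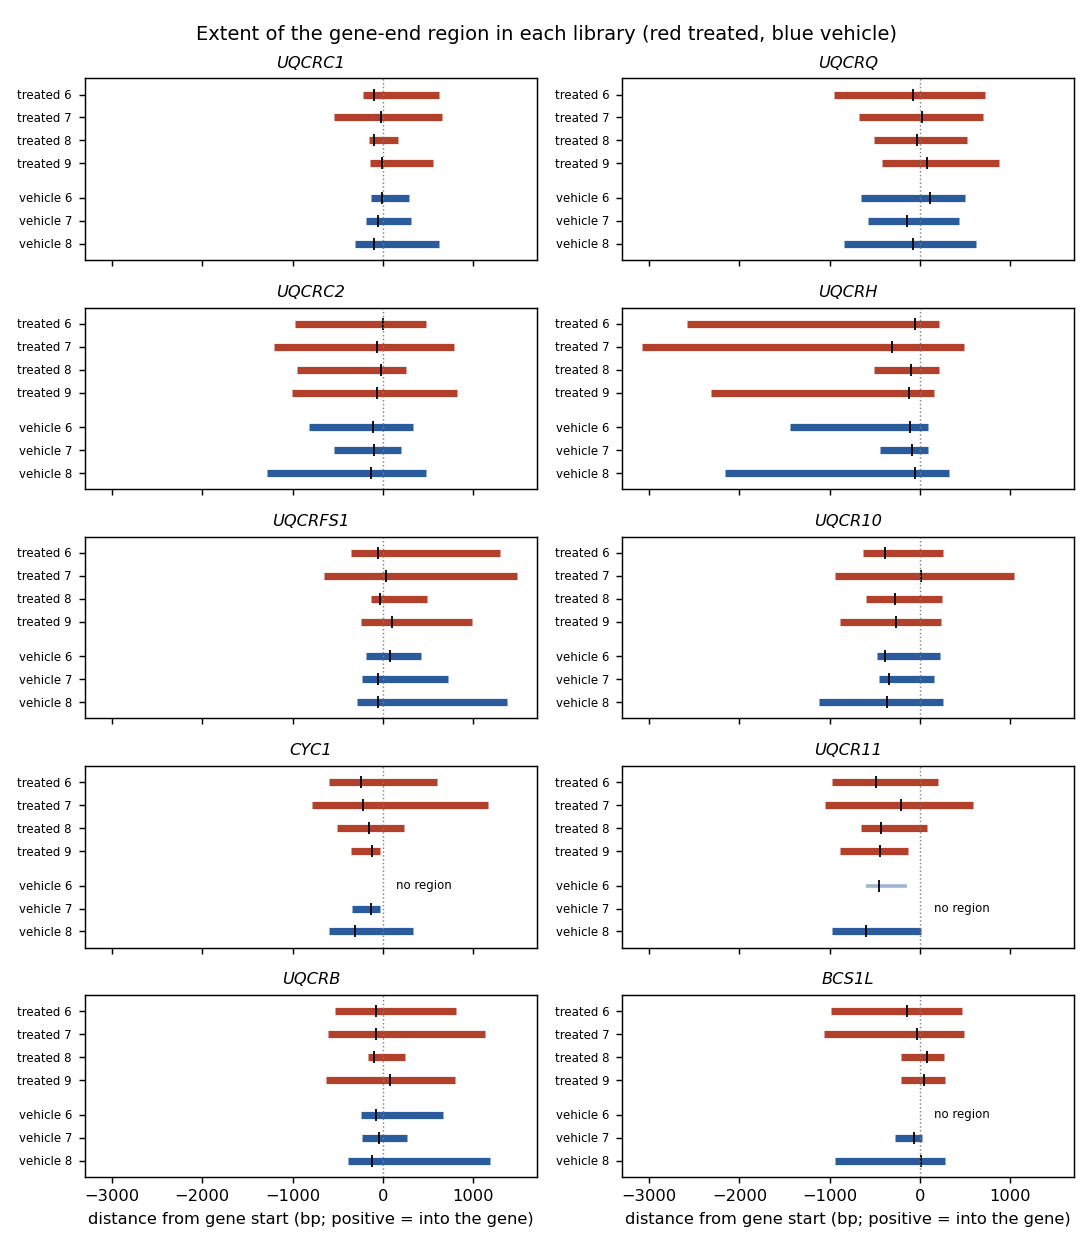
Extent of the gene-end region of each member in each library, in bp from the annotated start with positive values inside the gene, treated libraries (red) above vehicle libraries (blue), and the summit as a black tick. The thin pale bar at UQCR11 is a deposited region outside the equal-size list; UQCRH regions reach up to 3075 bp upstream, and UQCR11 summits lie 208 to 594 bp upstream.

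Several members share their open region with a neighbour that starts in the opposite direction, and reads there cannot be assigned to either gene. UQCRQ starts 9 bp from GDF9, an oocyte growth factor gene, and its printed promoter therefore contains the start of both. BCS1L starts 60 bp from ZNF142, a zinc finger gene, UQCRH 82 bp from LRRC41, and UQCR10 362 bp from ZMAT5. UQCRFS1 starts 102 bp from the long non-coding RNA gene UQCRFS1-DT, and the antisense RNA gene UQCRB-AS1 overlaps the open end of UQCRB. UQCRC1, UQCRC2, CYC1 and UQCR11 had no other protein-coding gene end inside their region.

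Most regions around the complex III genes were not shared by all libraries. Of the 37 merged regions within 10 kb, 9 were present in all 7 deposited lists and 14 in a single library. Of those 9, 7 were members' own gene-end regions, 1 lay at ends of SHARPIN and MAF1 near CYC1, and 1 at ends of RNF25 and STK36 near BCS1L. None of the 37 was present in every library of either treatment and absent from all libraries of the other treatment, in the deposited or in the equal-size lists. The windows held 25, 31, 19 and 17 deposited regions in treated libraries 6, 7, 8 and 9, and 12, 14 and 25 in vehicle libraries 6, 7 and 8. At equal list size they held 12, 13, 17 and 15 regions in treated libraries 6, 7, 8 and 9, and 11, 14 and 14 in vehicle libraries 6, 7 and 8, and the groups overlapped in both counts. Next to UQCR11, a region at MBD3, chr19:1590861-1593532, was in 3 of 4 treated and 1 of 3 vehicle equal-size lists, and in 4 treated and 2 vehicle lists as deposited. A region inside TCF3 on the other side of UQCR11, chr19:1612150-1612429, was in 0 treated and 1 vehicle equal-size lists. At the edge of the window, regions at 9857 bp from BCS1L and 9911 bp from UQCR11 were included, and regions at 10146 bp from UQCRC1 and from UQCRFS1 were not.

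Genes that work with complex III were read in the same way. Of 10 genes for its assembly and for processing of its precursors, 9 had a region in at least 1 equal-size list, and 0 were called in either direction by the exact test, with a median difference of -0.11. LYRM7, which holds the Rieske protein before BCS1L inserts it, ranked at 0.620%, 1.40%, 1.20% and 1.52% in treated libraries 6, 7, 8 and 9, and 0.877%, 1.30% and 0.203% in vehicle libraries 6, 7 and 8. Every library had it nearer the top than all 10 complex III members, and the groups overlapped. Cytochrome c (CYCS) and the enzyme that attaches its haem (HCCS) were not called, with differences of -0.49 and -0.08. All 11 genes of ubiquinone synthesis had a region in all 7 lists and 0 were called, with a median of -0.50.

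Of 10 dehydrogenases that feed electrons into ubiquinol, 9 were tested and 2 were called nearer the top in treated libraries, where 4.51% of all genes were. SDHA, the flavoprotein of succinate dehydrogenase, ranked at 54.0%, 40.8%, 36.1% and 43.5% in treated libraries 6, 7, 8 and 9, and at 75.7%, 83.2% and 66.6% in vehicle libraries 6, 7 and 8. CHDH, choline dehydrogenase, ranked at 55.9%, 49.7%, 36.1% and 30.9% in treated libraries 6, 7, 8 and 9, and at 96.8% and 95.9% in vehicle libraries 6 and 7, with vehicle library 8 outside. Neither gene overlapped between the groups, as 9.44% of all genes did not in this direction, with differences of -0.80 and -1.22 and an exact permutation p of 0.0286 each (adjusted 0.520), and the median of the list was -0.30. Of 12 genes of complex IV, which oxidises cytochrome c, 10 were tested, COX5A was called nearer the top in treated libraries (-0.76) and COX7B nearer the top in vehicle libraries (0.31), where 4.51% and 0.975% of all genes were called in these directions, with a median of -0.20. Both had the same exact permutation p of 0.0286 and adjusted p of 0.520.

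The protein-coding genes whose ranks over the 7 libraries lay closest to the median profile of the members were ZNF674, GPN3, FAM216A, TNIK and GARRE1, by Euclidean distance in log2 rank (0.41 to 0.55). GPN3 and FAM216A share the same region. ZNF674 ranked at 21.7%, 20.04%, 26.4% and 17.0% in treated libraries 6, 7, 8 and 9, and at 27.5%, 24.1% and 24.0% in vehicle libraries 6, 7 and 8, where the members' median was 25.5%, 17.7%, 26.4% and 20.7% in treated libraries 6, 7, 8 and 9, and 28.2%, 24.1% and 24.4% in vehicle libraries 6, 7 and 8.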

How the data were processed

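The deposited files are MACS2 peak lists, per the file headers, made separately for each of 4 treated and 3 vehicle libraries. The submitters' processing notes name FastQC, Bowtie2, Picard and the build hg38. Neither caller settings nor a Tn5 offset shift is given in the sources used here, and the settings would change region number and width. Each deposited list gives a fold enrichment as a ratio, a −log10 p-value and a −log10 q-value and a score per peak, all the authors' own values, used only to rank or filter within a list. The deposited fold enrichments lie on a grid of (pileup + 1)/(background + 1), and with a tolerance of 0.02, 100% gave a whole summit pileup, which gave each library's background. The total read number is unknown.

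Only chromosomes 1 to 22 and X were used, at the cost of 29 to 54 peaks per library, and coordinates are 1-based. The named members, neighbours, similar genes and called genes of other lists follow a written rule, and the members and lists were chosen with earlier results of these data known. Log2 ranks (tied regions share their mean rank, absent genes take rank 32829) and log2 widths were compared by a two-sided exact permutation test over 35 label assignments per gene, with Benjamini-Hochberg adjustment over all genes tested and a call at an unadjusted p under 0.05. Alternatives were limma 3.58.1 (R 4.3.3), other list lengths, filters and windows, left-out libraries, a replicate block and, chosen after seeing the data, limma with left-out libraries or the block and a promoter GC adjustment in 20 bins. Differentiations 6, 7 and 8 occur in both groups and the study calls a differentiation a batch, so the numbers pair the libraries. Same-numbered libraries did not deviate together, with correlations of -0.11, -0.00 and -0.06. The largest correlation of a treated with a vehicle library was 0.26, for treated library 6 and vehicle library 8. Scripts used Python 3.11.15, numpy 2.4.6, pandas 2.3.3, scipy 1.17.1 and matplotlib 3.10.9, and were tested on simulated data. Sequences came from RefSeq (GRCh38.p14).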

Additional observations from a re-analysis of the deposited data

Results flagged for a closer look

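In treated library 8, the gene-end regions of 3 members ranked far from those of the other treated libraries, by the gap to the nearest library against the whole range of the 4. UQCRC1 ranked at 62.7% of the equal-size list there and at 25.5% to 28.0% in the other 3. UQCRFS1 ranked at 22.7% against 10.3% to 10.4%, and BCS1L at 79.2% against 33.7% to 38.7%. The test was made on 20 sets of treated values, the ranks and widths of 10 members, and chance flags about 1 in 20 sets. Treated library 8 had a recovered background of 0.816 fragments, the lowest of the treated libraries, and its UQCRC1, UQCRFS1 and BCS1L summits held 9, 15 and 8 fragments. The part of depth in these values was not tested.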

How the results depend on the processing

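The UQCR11 rank difference stayed negative under every alternative run (-1.51 to -0.28), at -1.39 to -1.19 with a library left out. With lists of 16414 regions or a −log10 q of at least 5 it could not be positive. Every vehicle library took the value given to absent regions there. The exact test of UQCR11 could not pass with 6 or fewer libraries or in 3 pairs, whose smallest p values were 0.0667, 0.1, 0.333 and 0.25. With lists of 16414 regions or a −log10 q of at least 5, 0 members were called in rank, with 479 and 447 genes in all. Limma called 2 members (UQCR11 and UQCRB) among 1773 genes, 1604 genes with peak number as a covariate, and 2 members and 1565 genes with the replicate block. With a library left out limma called 1 to 3 members and 1322 to 2022 genes, the 3 being UQCR11, UQCRB and UQCRH without treated library 6. The difference in members with a region was 0 in long lists and 0.5 to 2 with a library left out.

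Width called 88 genes in lists of 16414 regions, 81 at the stricter q, 313 by rank of width, 713 by limma and 531 with the covariate. With a library left out limma called 100 to 2998 genes and 0 to 1 members in width, the 1 being UQCRH without treated library 8. Without vehicle library 8, 662 of 2998 passed after adjustment, and without treated library 8, 1 of 1705. The replicate block put the UQCR11 rank difference at -1.36. The sign-flip test used with this block could call no member, because its smallest possible p was 0.25.

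Signs turned at several members, none of them called by the exact test, though limma called UQCRB in rank. The cause was not tested. In rank, CYC1 was at 0.14, 0.15, 0.54 and 0.051 and BCS1L at 0.069, 0.077, 0.51 and 0.18 (lists of 16414, stricter q, short lists for CYC1 or long lists for BCS1L, covariate). Long lists gave UQCRB -0.073 and UQCRQ 0.50, and the covariate gave UQCRFS1 0.016 and UQCRQ 0.016. The GC adjustment gave UQCRC2 0.012, UQCRFS1 0.11, UQCRQ 0.087 and BCS1L 0.17, and with the replicate block UQCRC2 0.12, UQCRFS1 0.26 and BCS1L 0.23. Leaving out a library gave CYC1 -0.59 to 0.43, BCS1L -0.56 to 0.44, UQCRQ -0.45 to 0.36, UQCRC1 -0.20 to 0.34, UQCRC2 -0.45 to 0.081 and UQCR10 -0.052 to 0.49. In width, the rank of width gave UQCRC1 -0.52, UQCRC2 -0.25, UQCRFS1 -0.52, UQCRB -0.60, UQCRQ -0.93 and UQCR10 -0.33. Long lists gave UQCRC2 -0.049, UQCRB -0.039 and UQCR10 -0.049, the covariate gave UQCRC1 -0.11, UQCRFS1 -0.00074 and UQCRB -0.14, and leaving out a library gave UQCRB -0.14 to 0.73.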
